A study of Mus musculus with 2 samples.

Results

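The 10 immediate early genes described here are Fos, Fosb, Jun, Junb, Egr1, Ier2, Dusp1, Zfp36, Klf2 and Klf6. They were chosen by name, and all 10 are among the 14366 genes of the tables. They were followed in 2 single-cell RNA libraries of cultured mouse hematopoietic stem cells (HSC), the cells that maintain all blood lineages. Lineage-negative bone marrow of 8 wildtype C57/B6 mice aged 6 to 8 weeks was pooled, and cells that were c-Kit and Sca-1 positive, CD150 positive and CD48 negative were sorted. Both groups were grown in Myelocult M5300 with cytokines, among them SCF at 100 ng/ml, and Primocin at 200 µg/ml. One culture received sterile water (vehicle) and the other 10 µM deferoxamine (DFO), an iron chelator, each for 48 h. From each, 20000 cells entered 10x Genomics 3′ library preparation, with 1 library per group.

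Immediate early genes are transcribed within minutes of a signal such as a cytokine, without new protein synthesis, and their RNAs are short-lived. Kinases of the MAP kinase cascades activate factors already bound at their promoters, such as SRF with its ELK partners and CREB. Fos and Jun proteins pair to form the transcription factor AP-1, Egr1 is a zinc finger transcription factor, and Dusp1 and Zfp36 encode proteins that shut the response down. In blood stem and progenitor cells these genes are also known to respond to tissue dissociation and sorting, and Egr1 is known for holding HSC in the marrow niche.

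The vehicle library held 8708 cells and 260938938 molecules, and the DFO library 9852 cells and 284326017 molecules. The median cell had 27805.5 and 27114 molecules, and 24 cell barcode sequences occurred in both libraries. Of 16 markers of HSC, 14 reached 5 CPM (molecules of a gene scaled to a library total of 1e6) in vehicle and 13 in DFO. Of 14 megakaryocyte markers, 13 were in the tables, and their summed level was 2124 CPM in vehicle and 1041 in DFO. The summed level of the neutrophil-monocyte markers was 196 and 178 CPM. Since each group has 1 library, no test between vehicle and DFO was possible. Intervals are exact 95% Poisson or Clopper-Pearson intervals, which cover counting error only. They leave out uneven spread of molecules between cells and differences between cultures, mice and library preparations.

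RefSeq promoters (GRCm38.p6, 250 bases before to 50 after the annotated start) matched 8 of the 10 genes. Those of 4 genes that separated the HSC-like from the megakaryocyte-like cells, as described further on, are given here 5′ to 3′ on the strand of the gene. Junb (chr8:84978699-84978998, minus strand) was higher in the megakaryocyte-like cells, and Klf2 (chr8:72318812-72319111, plus strand), Zfp36 (chr7:28379179-28379478, minus strand) and Dusp1 (chr17:26508423-26508722, minus strand) were higher in the HSC-like cells. Capitals mark matches to the 6 motifs named below.
Junb: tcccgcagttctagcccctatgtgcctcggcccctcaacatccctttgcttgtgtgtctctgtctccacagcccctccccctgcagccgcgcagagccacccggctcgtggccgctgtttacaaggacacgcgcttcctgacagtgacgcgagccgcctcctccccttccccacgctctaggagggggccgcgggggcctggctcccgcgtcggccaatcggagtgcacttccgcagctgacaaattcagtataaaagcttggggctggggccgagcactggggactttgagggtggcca
Klf2: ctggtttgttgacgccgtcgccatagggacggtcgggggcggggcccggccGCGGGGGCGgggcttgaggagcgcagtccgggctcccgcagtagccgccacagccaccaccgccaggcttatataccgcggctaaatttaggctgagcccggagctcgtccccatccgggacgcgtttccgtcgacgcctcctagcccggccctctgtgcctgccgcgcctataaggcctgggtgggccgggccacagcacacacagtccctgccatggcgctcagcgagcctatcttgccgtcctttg
Zfp36: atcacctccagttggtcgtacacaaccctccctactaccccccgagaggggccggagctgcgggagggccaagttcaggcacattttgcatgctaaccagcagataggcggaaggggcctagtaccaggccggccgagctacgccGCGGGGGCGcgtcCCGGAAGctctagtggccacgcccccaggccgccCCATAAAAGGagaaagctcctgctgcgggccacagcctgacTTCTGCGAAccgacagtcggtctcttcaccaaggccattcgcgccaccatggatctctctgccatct
Dusp1: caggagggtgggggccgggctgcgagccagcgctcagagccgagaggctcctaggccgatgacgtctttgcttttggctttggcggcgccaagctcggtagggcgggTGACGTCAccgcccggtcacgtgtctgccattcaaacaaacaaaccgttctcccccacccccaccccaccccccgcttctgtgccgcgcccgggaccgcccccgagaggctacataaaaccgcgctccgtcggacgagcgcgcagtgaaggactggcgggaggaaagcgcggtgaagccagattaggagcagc
The motifs, searched on both strands, were the CArG box bound by SRF, the CRE bound by CREB (TGACGTCA), the AP-1 site (TGANTCA), the STAT site (TTCNNNGAA), the EGR site (GCGNGGGCG) and an ETS site (CCGGAAG). Positions count from the annotated start, with -1 just before it, and give the first base of the match. The Zfp36 window held a CArG box at -58, a STAT site at -17, an EGR site at -105 and an ETS site at -92, none overlapping another. Klf2 had an EGR site at -199, Dusp1 a CRE at -143, and Junb no match. Of the 8 promoters, 3 held an EGR site (Fosb, Zfp36 and Klf2), 1 a CArG box, 1 a CRE and none an AP-1 site. Of all 32851 promoters in the table, 1.63% held a CArG box, 1.79% a CRE, 7.81% an AP-1 site, 8.30% a STAT site, 5.55% an EGR site and 8.86% the ETS site. A match describes these letters only.

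The genes spanned about 3 orders of magnitude of CPM in both libraries, where each molecule is counted once from its 3′ end and no length correction applies. Ier2, a small nuclear protein of the immediate early response, was the highest at 90.4 CPM in vehicle (89.3 to 91.6) and 102 CPM in DFO (101 to 104). Junb followed at 48.3 CPM in vehicle and 43.0 in DFO. Egr1 stood at 25.3 and 22.3 CPM and Klf6, a zinc finger transcription factor of the Krüppel-like family, at 19.3 and 18.5 CPM. Jun, Dusp1 and Zfp36 lay between 4.48 and 6.30 CPM in either library. Klf2, a Krüppel-like factor known for lymphocyte quiescence and endothelial flow responses, was at 2.25 CPM in vehicle and 2.73 in DFO.

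The textbook representatives of the group were nearly absent after 48 h. Fos was counted 165 times in all vehicle cells and 189 times in all DFO cells, which is 0.632 and 0.665 CPM. Fosb was counted 20 and 21 times. At the full depth of the cells, Fosb molecules were found in 0.207% of vehicle and 0.193% of DFO cells. Elane, a neutrophil granule gene, was found in 0.119% and 0.478% of megakaryocyte-like cells (median 34388 and 32065.5 molecules), so Fosb is not separable from background RNA at this depth. Fos, also at full depth, was found in 1.79% and 1.77% of cells. That is below the 7.82% and 5.14% of neutrophil-monocyte-like cells with the platelet gene Ppbp (median 30381 and 28236 molecules). The Fos level nevertheless differed between clusters beyond counting error, as given below. The heat shock genes Hspa1a and Hspa1b, which cell isolation is known to induce, stood at 0.0881 and 0.460 CPM in vehicle and 0.120 and 0.654 CPM in DFO.

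**Figure D1:**
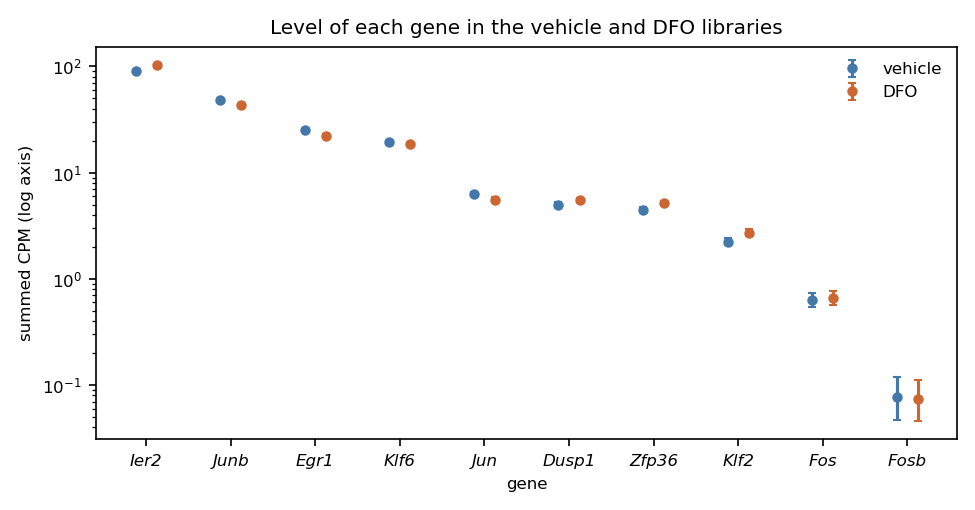
Summed CPM (vertical log axis) of each of the 10 genes (horizontal axis) in the vehicle (blue) and DFO (orange) libraries, with exact 95% Poisson intervals for counting error, most of them smaller than the points. The order runs from Ier2, at 90.4 and 102 CPM, to Fosb, at 0.0767 and 0.0739 CPM, and the libraries lie close together for every gene.

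A single vehicle cell stood apart in these genes and touches several of the vehicle values. Of its 35140 molecules, 488 came from the 10 genes, or 13887 CPM, where the median vehicle cell had 170 CPM and 99% of vehicle cells had 752 CPM or less. It held 198 molecules of Junb, 109 of Ier2, 102 of Jun, 35 of Egr1 and 23 of Zfp36, but none of Fos and 1 of Fosb. It was not among the likely doublets, and its mitochondrial share was 4.33%. The next cell, from DFO, had 4319 CPM. Without the single cell the vehicle level of Jun was 5.91 CPM in place of 6.30 CPM, and that of Junb 47.6 CPM. Values that depend on it are given below with and without it.

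Cells of both libraries were clustered together without these 10 genes and without other immediate early, heat shock, cell cycle, mitochondrially encoded and ribosomal protein genes. Of 15 clusters, 14 had at least 50 cells in each library, and all levels and ranks by cluster cover these. Cluster 14, with 20 vehicle and 15 DFO cells, was left out. It holds the single vehicle cell, and its Ier2 level was 259 CPM in vehicle and 72.1 in DFO. Cluster 10 (Wfdc2, Dlk1, Procr, Meg3 and Sult1a1 lead it) was HSC-like, with 461 vehicle and 636 DFO cells, or 5.29% (4.83 to 5.79) and 6.46% (5.98 to 6.96). Clusters 3 (Csrp3, Nlrp6, Cavin2, Il1b, Nt5e) and 7 (2610528A11Rik, Serpinb2, Timp3, Clec1b, Serpine2) were megakaryocyte-like, together 19.3% (18.5 to 20.2) of vehicle and 12.8% (12.1 to 13.4) of DFO cells. Cluster 13 (Mpo, Ctsg, Elane, Ccr2, Mcpt8) was neutrophil-monocyte-like. Cluster 12 (Trnp1, Siglecf, Tspan33, Cpa3, Slc28a2) was erythroid-like by the naming rule, with Aqp1 and Klf1 among its top 10 genes. Those also held the mast cell marker Cpa3. Since erythroid and mast cell markers had nearly equal folds in it, cluster 12 is called by its number, as are the rest. Cluster 7 cells scored G2/M in 97.8% of vehicle and 98.8% of DFO cells, and cluster 3 cells in 47.6% and 44.7%. The HSC-like cells scored G2/M in 26.0% and 30.4%.

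Egr1 had its highest levels in the megakaryocyte-like clusters and was the gene of the group that varied most between clusters. It stood at 76.7 CPM in vehicle and 90.5 in DFO in cluster 3, and at 44.4 and 46.0 CPM in cluster 7. Its lowest vehicle level was 3.61 CPM (2.21 to 5.57) in cluster 13, the neutrophil-monocyte-like one, and its lowest DFO level 4.48 CPM in cluster 0, whose leading genes Ube2c, Nusap1, Fam83d, Cenpf and Kif23 act in mitosis. The highest cluster was 21.2 times the lowest in vehicle and 20.2 times in DFO, and the counting intervals of the ends do not touch. HSC-like cells, with 23.1 CPM (20.5 to 25.9) in vehicle and 19.8 CPM (17.7 to 22.1) in DFO, lay between. Cluster 4, led by Lpl, Slc7a8, Tcf19, Ccne1 and Slamf1, was at 37.8 and 40.3 CPM. In DFO it held 1066 Egr1 molecules, against 1022 in cluster 7. Cluster 11, led by Rpgrip1, Slc39a1, Fn3krp, Notch2 and Abhd2, was at 31.1 and 43.2 CPM. Its DFO interval, 37.2 to 49.8 CPM, overlaps that of cluster 7, 43.2 to 48.9 CPM. Its cells were shallow, with medians of 7216 and 6675 molecules.

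In cells thinned to 10000 molecules, which leaves out 351 vehicle and 433 DFO cells, Egr1 was present in 13.0% (12.3 to 13.7) of vehicle and 12.1% (11.5 to 12.8) of DFO cells. Without thinning the shares were 22.9% and 21.6%. Of the thinned megakaryocyte-like cells, 70.2% of vehicle and 66.9% of DFO cells had no Egr1 molecule, while 8.53% and 9.45% had 3 or more. Of the thinned neutrophil-monocyte-like cells, 97.2% and 95.4% had none, and none had more than 1 molecule. Within the megakaryocyte-like cells, Egr1 was therefore counted in a minority at this depth.

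Junb had the same 2 leading clusters, over a smaller range. It stood at 78.1 CPM in vehicle and 76.8 in DFO in cluster 3, and at 66.6 and 60.7 CPM in cluster 7. Its lowest levels were 20.4 and 25.6 CPM, in the shallow cluster 11. The megakaryocyte-like class as a whole held 72.0 CPM (69.9 to 74.1) in vehicle, against 47.5 CPM (43.7 to 51.5) in the HSC-like cells. In DFO these were 68.7 and 42.8 CPM.

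The HSC-like cluster led for several of the other genes. Klf2 was at 6.41 CPM (5.06 to 7.99) in HSC-like and 1.66 CPM (1.36 to 2.00) in megakaryocyte-like vehicle cells, and at 8.55 CPM (7.18 to 10.1) and 1.88 CPM (1.5 to 2.33) in DFO. No other cluster exceeded 3.76 CPM in vehicle or 4.27 CPM in DFO. Fos was at 1.56 CPM (0.939 to 2.44) in HSC-like against 0.553 CPM (0.387 to 0.765) in megakaryocyte-like vehicle cells, and at 2.48 CPM (1.77 to 3.37) against 0.657 CPM (0.440 to 0.943) in DFO. HSC-like cells were highest for both genes in both libraries, and their counting intervals lie apart from those of the pooled megakaryocyte-like cells. For Fos the 2 megakaryocyte-like clusters differed. Cluster 7 was at 0.173 CPM in vehicle and 0.315 in DFO. Cluster 3 was at 0.988 CPM (0.667 to 1.41) in vehicle, overlapping the HSC-like interval, and at 1.0 CPM (0.628 to 1.52) in DFO. By cell cycle score, vehicle Fos was at 1.27 CPM in G1, 0.901 in S and 0.457 in G2/M. The part of phase in the Fos levels was not tested.

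Ier2 was highest in the HSC-like cluster too, at 127 CPM in vehicle and 135 in DFO, but no cluster lacked it, the lowest being 68.8 and 82.1 CPM. Dusp1, the phosphatase that switches off MAP kinases, was at 7.88 CPM in HSC-like and 2.84 CPM in megakaryocyte-like vehicle cells, and at 7.43 and 3.31 CPM in DFO. Cluster 5 had similar Dusp1 levels, at 7.31 CPM in vehicle and 8.81 in DFO, where it was the highest. Its intervals overlap the HSC-like ones in both libraries. Zfp36 encodes tristetraprolin, which marks AU-rich messenger RNAs for decay. It was at 7.88 and 4.10 CPM in vehicle, with 10.5 and 4.6 in DFO. Its levels in the shallow cluster 11 were similar to the HSC-like ones, at 7.97 and 9.70 CPM. Jun, the main partner of Fos, was highest in HSC-like cells, at 9.53 CPM (7.87 to 11.4) in vehicle and 7.0 CPM (5.77 to 8.41) in DFO. Against the megakaryocyte-like cells, at 5.48 and 6.27 CPM, only the vehicle intervals lie apart.

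On the log2 scale of (CPM + 1), 5 of the 10 genes were higher in HSC-like than in megakaryocyte-like cells by 0.25 or more in both libraries, where 24.8% of the 8886 genes averaging at least 5 CPM were. They were Klf2 (1.48 in vehicle, 1.73 in DFO), Dusp1 (1.21 and 0.97), Zfp36 (0.80 and 1.04), Fos (0.72 and 1.07) and Ier2 (0.74 and 0.54). Junb (-0.59 and -0.67) and Egr1 (-1.33 and -1.73) were lower by that much in both, a direction that 17.1% of those genes took. Klf2, Zfp36 and Fos average under 5 CPM and lie outside that set. Of the 6 genes within it, 2 were higher (Ier2 and Dusp1) and 2 lower (Junb and Egr1). Jun was 0.70 higher in vehicle and 0.14 higher in DFO. Klf6 (-0.23 and -0.06) and Fosb (-0.11 and -0.10) did not reach 0.25 in either library. For Klf6 the 2 megakaryocyte-like clusters lay on opposite sides of the HSC-like cluster, which was at 16.75 CPM in vehicle and 18.95 in DFO. Cluster 3 was at 12.05 and 12.81 CPM, and cluster 7 at 26.74 and 26.69 CPM. Egr1 and Junb were thus higher in the megakaryocyte-like class, and Klf2, Dusp1, Zfp36, Fos and Ier2 in the HSC-like class. Counts of 2 and 2 among 6 genes are too small to set the group apart from the shares over all genes. Zfp36 and Fos left the 5 higher genes when the variable genes were not scaled before clustering, and Fos with a pseudocount of 10.

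**Figure D2:**
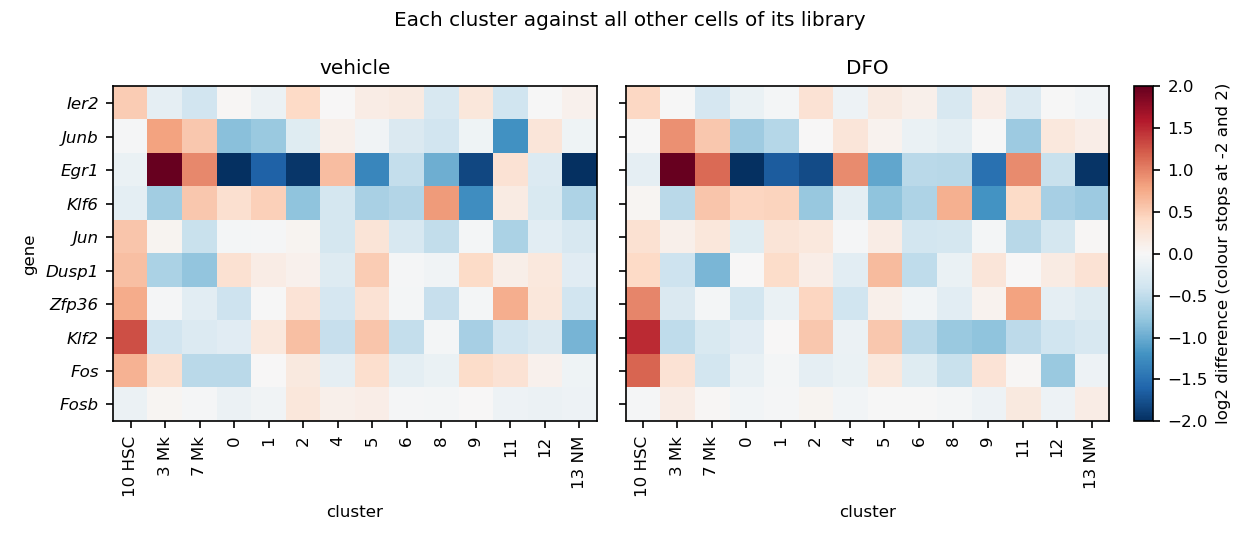
Log2 difference, on (CPM + 1), of each gene (rows) in each cluster (columns) against all other cells of the same library, red where higher and blue where lower, with vehicle on the left and DFO on the right. Column labels give the cluster number, with HSC for HSC-like, Mk for megakaryocyte-like and NM for neutrophil-monocyte-like. Egr1 and Junb are red in clusters 3 and 7, and Klf2, Zfp36, Fos, Dusp1 and Ier2 in cluster 10, in both libraries.

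For Egr1, Junb, Ier2, Dusp1 and Klf2 the same order was seen without clusters, when the cells of each library were ranked by the summed share of the megakaryocyte markers and divided into deciles. Egr1 was at 11.6 CPM in the lowest and 63.5 CPM in the highest decile of vehicle cells, and at 9.78 and 68.7 CPM in DFO. Its level was 12.4 CPM or less in each of the first 5 deciles of either library, and the largest steps led into deciles 9 and 10. Junb went from 36.6 to 81.5 CPM in vehicle and from 33.3 to 70.1 CPM in DFO. Ier2 went the other way, from 105 to 76.3 CPM and from 111 to 88.5 CPM. Dusp1 went from 6.64 to 2.96 CPM and from 6.52 to 3.55 CPM, and Klf2 from 3.67 to 1.92 CPM and from 4.45 to 1.94 CPM. The end deciles of Zfp36 differed little in vehicle, at 5.61 and 5.34 CPM, and more in DFO, at 6.68 and 5.01 CPM. Fos was at 0.701 and 0.488 CPM in vehicle, with 1.27 and 0.820 in DFO. Cells of the highest decile were deeper, with a median of 35821 molecules in vehicle and 30358 in DFO, and 70.6% and 64.0% of them scored G2/M. The part of depth and phase in these levels was not tested.

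Ranked by the summed share of HSC markers, Klf2 was at 1.31 CPM in the lowest and 6.11 CPM in the highest decile of vehicle cells, and at 2.10 and 7.37 CPM in DFO. Zfp36 stood at 3.6 and 7.03 CPM in vehicle, with 3.95 and 9.79 in DFO. The highest decile was also the highest of all deciles for Fos, Ier2, Dusp1, Zfp36, Klf2 and Klf6 in both libraries. Egr1 had its highest level in the sixth decile in both libraries, at 33.3 CPM in vehicle and 28.0 in DFO, with 13.9 and 15.9 CPM in the highest decile. Cells of the highest decile had medians of 22095 and 21339 molecules, and 41.7% and 44.8% of them scored G2/M.

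**Figure D3:**
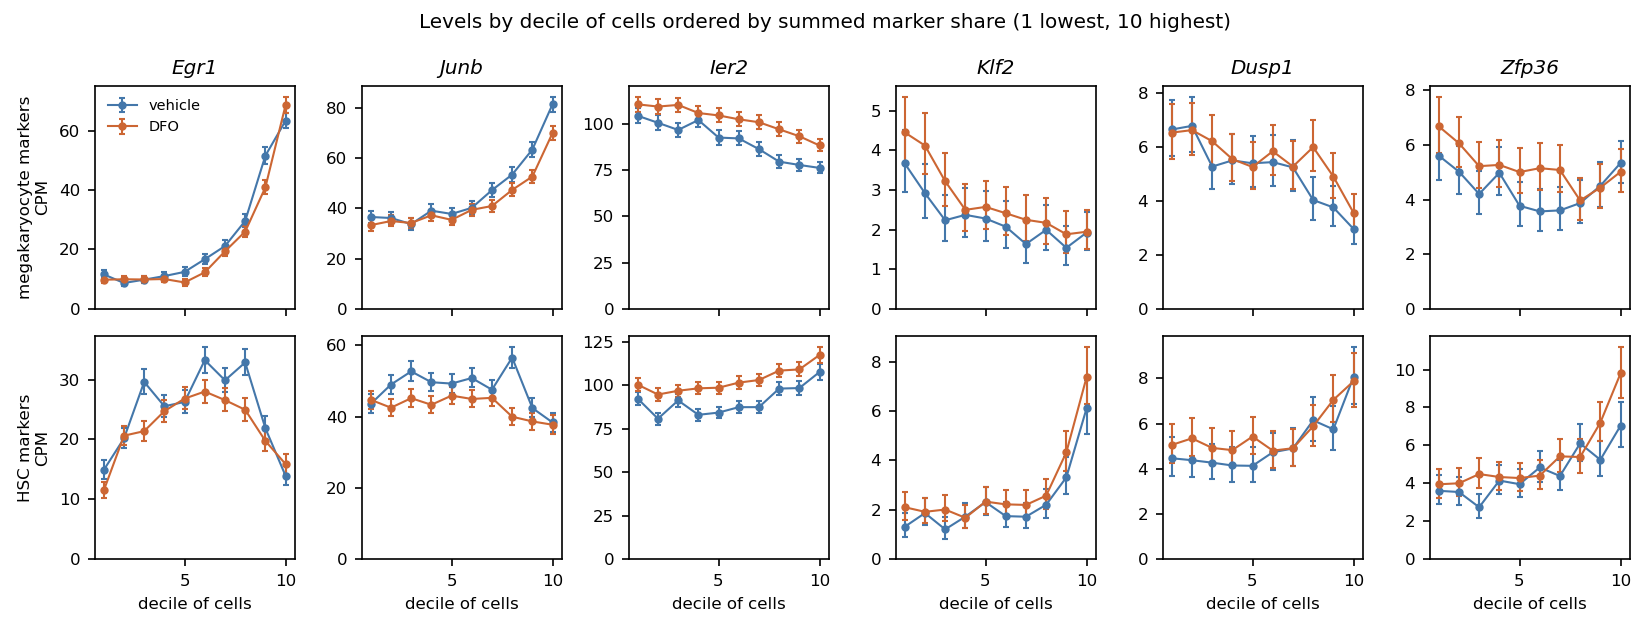
CPM of 6 of the genes in deciles of cells, ordered from the lowest (1) to the highest (10) summed share of megakaryocyte markers (upper row) or HSC markers (lower row) within the vehicle (blue) and DFO (orange) libraries, with exact 95% Poisson intervals. Egr1 and Junb are highest in the last megakaryocyte decile, and Klf2, Dusp1 and Zfp36 in the last HSC decile in both libraries.

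Klf6 differed between cell cycle scores. It was at 12.7 CPM in G1-scored, 8.80 CPM in S-scored and 24.2 CPM in G2/M-scored vehicle cells, and at 12.1, 9.53 and 22.8 CPM in DFO. Clusters did not follow their G2/M share throughout: cluster 2, with 67.5% and 66.5% of cells scored G2/M, had 10.9 and 11.1 CPM, below the 16.8 and 18.95 CPM of the HSC-like cluster. It was highest in cluster 8, led by Il1rl1, Slc7a8, Gna14, Fgf3 and Olfr417, at 33.4 and 29.7 CPM. That cluster scored G2/M in 96.4% and 99.2% of cells. The genes that correlated most with Klf6 across thinned cells, looked up after its levels were seen, were the mitotic genes Mki67 (mean r of the 2 libraries 0.15), Prc1, Ube2c, Cenpe and Tpx2. Cluster 0 is just as fully G2/M-scored, at 99.6% and 99.5%, and its Egr1 was the lowest or second lowest of the 14 clusters, so G2/M-scored cells did not share one Egr1 level.

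Between the libraries, none of the 10 genes differed by a log2 of 0.25 or more, a size that 3.97% of the 8886 genes reached. The median of the 10 was 0.01, against 0.02 for all those genes, whose SD was 0.13. Of the 10, 5 were lower in DFO, where 42.1% of those 8886 genes were. Those of the 10 that average at least 5 CPM were the 6 genes Ier2, Junb, Egr1, Klf6, Jun and Dusp1, of which 4 were lower. The ratio intervals quoted next are computed without the added 1 and cover counting error only.

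Ier2 was higher in DFO by 0.18 (ratio interval 0.15 to 0.20). Klf2 (0.20, interval 0.12 to 0.44), Zfp36 (0.17, interval 0.10 to 0.32) and Dusp1 (0.12, interval 0.04 to 0.25) were higher as well. Egr1 was lower by 0.17 (log2 difference -0.17, interval -0.23 to -0.13), as was Junb (-0.16, interval -0.20 to -0.13). Jun (-0.15, interval -0.28 to -0.08) stood at -0.07 without the single vehicle cell. Junb was then at -0.14 and Egr1 at -0.16. Klf6 (-0.05), Fos (0.03) and Fosb (-0.004) lay near 0.

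Within clusters the directions of Ier2 and Egr1 parted. Ier2 was higher in DFO in all 14 clusters, by 0.04 to 0.33. Klf2 was higher in 13, with cluster 8 the exception at -0.46, and Zfp36 in 12. Egr1, lower in DFO over all cells, was lower within 5 of the 14 clusters only, with a median over clusters of 0.06. In cluster 3 it was higher in DFO by 0.24 and in cluster 7 by 0.05, while in the HSC-like cluster it was lower (-0.21), as in cluster 12 (-0.33). With each cluster given the same share in both libraries, Egr1 was 0.10 higher in DFO, and Junb -0.05. The clusters with the highest Egr1 levels were a smaller share of the DFO library. Cluster 3 made up 11.1% (10.4 to 11.8) of vehicle and 7.64% (7.13 to 8.19) of DFO cells, and cluster 7 8.23% and 5.11%. The next clusters by Egr1 level were not smaller in DFO. Cluster 4 made up 7.19% of vehicle and 8.78% of DFO cells, and cluster 11 4.78% and 4.83%. For the Egr1 level within cluster 7, the counting intervals of the libraries overlap. The intervals of the cluster 7 share lie apart, at 7.7 to 8.8% for vehicle and 4.7 to 5.6% for DFO. The part of these shares in the lower Egr1 of the DFO library was not tested.

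**Figure D4:**
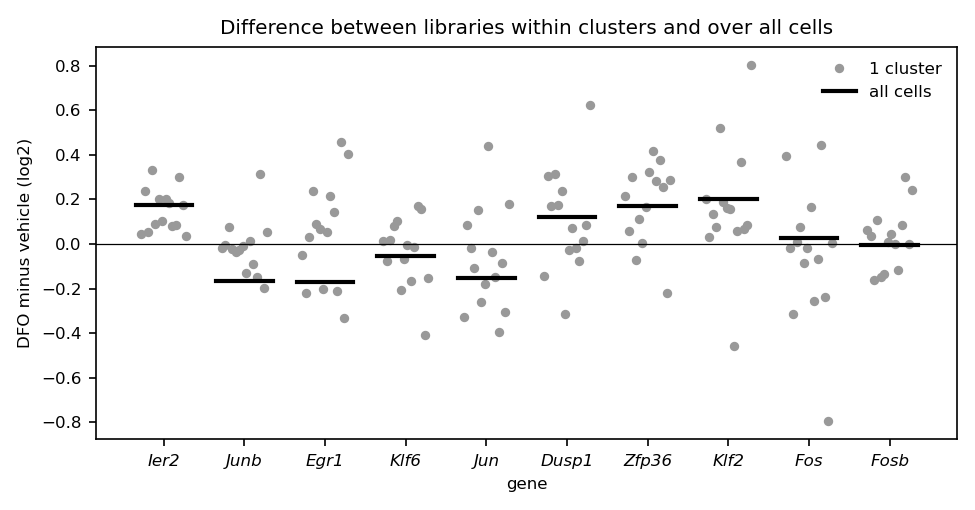
DFO minus vehicle log2 difference on (CPM + 1) (vertical axis) for each gene (horizontal axis), with 1 grey point for each of the 14 clusters and a black bar for all cells. Ier2 lies above 0 in every cluster, and for Egr1 the bar lies at -0.17 while 9 of the 14 points lie above 0.

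Other divisions of the cells gave both directions for Egr1. It was lower in DFO among female cells (-0.19) and among male cells (-0.19), which the Xist and Y-linked transcripts separate in this pool. By quartile of depth it was higher in DFO in the shallowest cells (0.13) and lower in the other 3 quartiles (-0.22, -0.29 and -0.13). By mitochondrial share it was higher in DFO in the first 3 quartiles, by 0.29, 0.37 and 0.32, and lower (-0.20) in the last. The mitochondrial quartiles were unequally filled, with 3269 vehicle and 1371 DFO cells in the first and 1241 and 3399 in the last. Ier2 was higher in DFO in every one of these divisions, and in G1, S and G2/M-scored cells, by 0.12, 0.19 and 0.18.

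Across cells most correlations between the 10 genes were near 0. Over the 45 pairs, the median Pearson correlation of ln(1 + thinned molecules) was 0.011 in 8357 vehicle and 0.013 in 9419 DFO cells, and 33 and 30 pairs were above 0. Without the single vehicle cell the vehicle median was 0.006. Such correlations are descriptions: cells of a library share a culture, and most cells hold 0 or 1 molecule of a gene. At such counts a value near 0 does not show that genes are uncoupled. Only 2 pairs reached 0.1, and they did so in both libraries. Egr1 with Junb had r of 0.20 in vehicle and 0.18 in DFO, and Egr1 with Ier2 0.12 in both. Egr1 and Junb were both present in 6.63% of thinned vehicle cells, where independence would give 4.54%, and in 5.98% of DFO cells, where it would give 3.99%.

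The pairs with Egr1 were also positive inside clusters. In 12 clusters with at least 200 thinned cells in each library, r of Egr1 with Ier2 was above 0 in 12 of 12 in both libraries, from 0.04 to 0.26 in vehicle and from 0.07 to 0.21 in DFO. That of Egr1 with Junb was above 0 in 11 of 12 in vehicle and 12 of 12 in DFO. It was 0.27 and 0.20 in cluster 3 and 0.28 and 0.20 in cluster 7. Fos, present in 0.622% and 0.648% of thinned cells, had r of 0.05 and 0.02 with Egr1. The 2 were found together in 16 vehicle and 11 DFO cells, 2.37 and 1.49 times the share that independence gives.

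**Figure D5:**
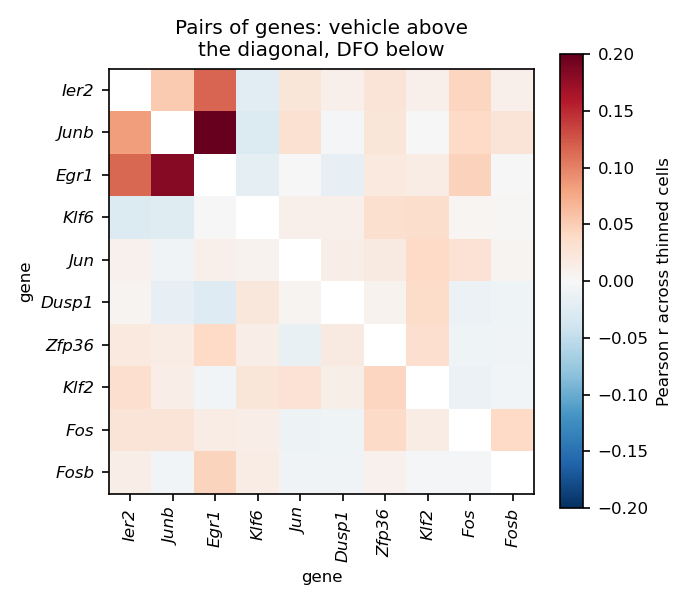
Pearson r of ln(1 + thinned molecules) across cells for each pair of genes, with vehicle above the diagonal and DFO below, red for positive and blue for negative values. Egr1 with Junb (0.20 and 0.18) and Egr1 with Ier2 (0.12 in both) stand out, and most other squares are pale.

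Egr1 was the 1 gene of the 10 whose molecules were spread over cells more unevenly than a variance of 1.5 times the mean in both libraries, a limit that 2.72% of 8812 genes with a thinned mean of at least 0.05 reached. Its ratio was 2.92 in vehicle and 2.44 in DFO, where pure counting gives 1 and the median gene had 1.04 and 1.03. Ier2 had ratios of 1.30 and 1.21, and Klf6 1.17 and 1.19. Jun (2.14) and Junb (1.92) passed 1.5 in vehicle only, and without the single vehicle cell both were under 1.5, with Jun at 1.10. Egr1 without it was at 2.83, and with cluster means removed at 2.70 and 2.21, so most of its spread lay between cells of the same cluster.

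Among 8738 genes present in at least 5% of the thinned cells of each library, those that correlated most with Egr1 included the serine protease inhibitor gene Serpina3g (mean r 0.26), the platelet factor gene Pf4 (0.22), the metallothionein gene Mt1 (0.20) and the small GTPase gene Rap1b (0.20). Pf4 and Rap1b are among the megakaryocyte markers used to name clusters. Over all compared genes the middle 90% lay between -0.04 and 0.05. With the summed molecules of the 10 genes, the highest included Serpina3g (0.13), Ccnd2, Gem, Ifitm3, Rap1b, Serpina3f, Pim3, Ddx5 and Xbp1, the last at 0.08. Of the listed genes of the pathway, Cish (0.13), a STAT5 target that dampens cytokine receptors, Id1 (0.13) and Jund (0.11) came closest.

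The other genes of the pathway were taken from lists of names, and counts cover list genes averaging at least 5 CPM. The cascade upstream was present and differed little: all 22 kinases and factors passed 5 CPM, none differed between libraries by 0.25, and their median was 0.02. Srf, the factor that binds CArG boxes, was at 14.3 CPM in vehicle and 16.4 in DFO (log2 difference 0.19). Mapk3 (-0.14) and Mkl1 (-0.12) were the lowest. Map2k2 and Hras had the highest levels, at 162 and 129 CPM in vehicle.

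Of all 8886 genes averaging at least 5 CPM, 42.1% were lower in DFO and 3.97% differed by 0.25 or more. Of 14 other immediate early transcription factors, 13 were higher in DFO and 1 lower, with a median of 0.12, and 3 passed 0.25. Those were Id1, an inhibitor of helix-loop-helix factors, at 144 and 187 CPM (0.38), Cebpb, a bZIP factor of myeloid cells, at 62.5 and 76.2 CPM (0.28), and Fosl1, named for its count, at 5.89 and 7.26 CPM (0.26). Jund, the highest at 176 and 184 CPM, differed by 0.06, Hes1 by 0.02 and Bhlhe40 by -0.07. Of 19 other feedback and growth control genes, 11 were higher and 8 lower, with a median of 0.02. Btg2, an antiproliferative gene and the 1 to pass 0.25, was at 19.0 and 11.8 CPM (-0.64). Its level was 41.3 CPM in megakaryocyte-like and 7.80 CPM in HSC-like vehicle cells. Ppp1r15a was at -0.20, Dusp5 at 0.23 and Tob1 at 0.11. Cited2 and Mcl1, the highest, stood at 227 and 123 CPM in vehicle.

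Of 10 genes of ERK and cytokine feedback, 6 were higher and 4 lower in DFO, with a median of 0.09. The 2 past 0.25 were Cish, at 44.2 and 53.9 CPM (0.28), and Socs2, at 43.6 and 52.5 CPM (0.26). Spry1 (-0.11) and Pim1 (-0.08) were the lowest, and Pim1 had the highest level, at 126 CPM in vehicle. Of 6 other Klf genes, 2 were higher and 4 lower, from Klf7 at -0.24 and Klf13 at -0.10 to Klf16 at 0.14 and Klf10 at 0.16. Klf13 and Klf9, the highest in level, stood at 52.9 and 42.4 CPM in vehicle. The relatives of Zfp36 differed by -0.03 (Zfp36l1) and 0.07 (Zfp36l2). All 9 heat shock genes were higher in DFO, with a median of 0.12, where 42.1% of the 8886 genes were lower. They ranged from 0.06 for Hspa8 and 0.07 for Hsp90ab1 up to 0.18 for Hspd1 and 0.19 for Hsp90aa1. None passed 0.25. The part of this shift in the higher Ier2, Klf2, Zfp36 and Dusp1 was not tested.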

How the data were processed

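The authors deposited, per library, natural log values of genes by cells. Per the submitters' processing notes, FastQC 0.11.9, Trim Galore 0.6.5, Cell Ranger 3.0.2 and mm10 were used; the sources used here do not give the cell filters. From the deposited values, ln(1 + 27408 × molecules / cell total), all molecules came out whole within 0.05. Molecules were summed per library, cluster or decile, scaled to CPM and compared as log2 of (CPM + 1). All deposited cells were used. Spread, correlations and the shares given for thinned cells came from cells thinned to 10000 molecules. Other shares came from cells without thinning.

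Cells were clustered (scanpy 1.11.5, leidenalg 0.10.2, Python 3.11.15) on 2000 scaled variable genes, 30 principal components and 15 neighbours at resolution 1.0. A cluster was named where 3 markers were detected, 1 was in its top 10 genes, and the type led by both counts and mean fold. Resolutions of 0.5 and 0.25, and unscaled genes, were tried too: 0.5 gave no HSC-like cluster, and 1.0 was chosen for that reason, before the cluster levels of the 10 genes were computed but after Egr1 had been seen among one cluster's leading genes. Scrublet called 3 and 2 doublets, so its threshold did not work. Likely doublets (both sexes, or the top 8% of scores; 820 and 925 cells) were kept in the main values.

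Named genes are the 10 genes, the 2 highest, 2 lowest and 2 most abundant of each list, the 10 genes most like the sum and 5 most like Egr1, the leading 5 of each cluster described, and markers; a few that the rule names are not reported here. Members and lists were chosen with earlier results of these data known. The calculations were tested on simulated data. Promoters are RefSeq's (GRCm38.p6).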

Additional observations from a re-analysis of the deposited data

Results flagged for a closer look

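The DFO minus vehicle difference of Egr1 had opposite signs between cell cycle scores, with counting intervals on each side of 0. The difference between scores was not tested. Egr1 molecules varied between thinned cells more than counting gives, with a variance of 2.92 times the mean in vehicle and 2.44 times in DFO. The intervals below leave that out and are too narrow. In S-scored cells Egr1 was at 28.5 CPM in vehicle and 32.0 in DFO (log2 difference 0.16, interval 0.09 to 0.25). In G2/M-scored cells it was at 24.2 and 18.4 CPM (-0.38, interval -0.46 to -0.33), so the S value exceeds the G2/M value by 0.54. In G1-scored cells, 1014 in vehicle and 765 in DFO, it was at 22.8 and 18.7 CPM (-0.27, interval -0.52 to -0.05), which is -0.44 relative to S. The G2/M-scored megakaryocyte-like cluster 7, at 44.4 and 46.0 CPM, made up 8.23% of vehicle and 5.11% of DFO cells. The part of that share in the G2/M difference was not tested.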

How the results depend on the processing

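Of the recomputed values of the 5 summary results, 41 stayed within their tolerance and 6 moved. The median DFO minus vehicle difference of the 10 genes moved to -0.10 over the 6 genes averaging at least 5 CPM. It moved to -0.16 over those at 20 CPM or more, which are Ier2 (0.18), Junb (-0.16) and Egr1 (-0.17). Klf2 (0.20), Zfp36 (0.17), Fos (0.03) and Fosb (-0.004) average under 5 CPM and enter neither median. The number at 0.25 or more went from 0 to 2 in sums over thinned cells (Klf2 and Zfp36), 1 with a pseudocount of 0.1 (Klf2) and 2 in G1-scored cells (Jun and Egr1), where 12.2% of all genes reach that size. Egr1 was 0.10 higher in DFO with equal cluster shares and lower in the other 11 settings; Ier2, Dusp1, Zfp36 and Klf2 were higher in DFO in all 12. The 5 genes higher in HSC-like than megakaryocyte-like cells became 3 with unscaled variable genes, where Zfp36 was at -0.089 in vehicle (the cause was not tested). Junb and Egr1 were higher in megakaryocyte-like cells in every setting that gave a value. Resolutions of 0.25 and 0.5 and 30 neighbours gave no HSC-like cluster, hence no value. The resolution first intended was 0.5, with 1.0 as an alternative; 1.0 replaced it because 0.5 gave no HSC-like cluster. Leaving out the single vehicle cell and unscaled genes were added after seeing the data. Fos and Fosb are limited by depth. No paired analysis was possible because each group has 1 library.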

Other observations

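Related genes also differed between HSC-like and megakaryocyte-like cells, in both directions. Of the 14 other immediate early transcription factors at 5 CPM or more, 9 were higher in HSC-like cells by a log2 of 0.25 or more in both libraries and 3 were higher in megakaryocyte-like cells, where 24.8% and 17.1% of all genes at that level were. Examples, chosen after their values were seen, are Fosl2, at 24.4 CPM in HSC-like and 2.23 CPM in megakaryocyte-like vehicle cells (19.8 and 3.65 CPM in DFO), and the interferon regulatory factor Irf1, at 22.2 and 5.62 CPM (23.2 and 6.21 CPM in DFO). Jund, the remaining Jun gene, went with Junb, at 174 CPM in HSC-like and 239 CPM in megakaryocyte-like vehicle cells (194 and 260 CPM in DFO). Of the 19 other feedback and growth control genes, 9 were higher in HSC-like and 8 in megakaryocyte-like cells. Of the 22 upstream genes 6 and 4 were, of the 10 of ERK and cytokine feedback 4 and 2, of the 6 other Klf genes 2 and 1, of the 9 heat shock genes 0 and 4, and of the 2 relatives of Zfp36 neither. Among the feedback genes, chosen after their values were seen, Dusp5, a nuclear ERK phosphatase, stood at 18.9 and 1.90 CPM in vehicle (18.3 and 2.60 CPM in DFO), while Cited2 stood at 121 and 419 CPM (147 and 392 CPM in DFO).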
